A study of Homo sapiens with 18 samples.

Results

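Tissue factor (F3), the A subunit of factor XIII (F13A1), the tissue factor pathway inhibitors TFPI and TFPI2, thrombomodulin (THBD), the plasminogen activators PLAU and PLAT, the urokinase receptor PLAUR and the plasminogen activator inhibitor SERPINB2 were examined across 18 RNA-seq libraries of MDA-MB-231 cells. MDA-MB-231 is an established triple negative breast cancer line, that is, a line without estrogen receptor, progesterone receptor or HER2 amplification. These 9 genes were taken by symbol from the 57448 gene identifiers of the count matrix because F3 and F13A1 were among the largest changes in these same data. F3 and F13A1 are therefore described without a test in any comparison. All 9 genes were found and all had at least 1 CPM (counts scaled to a common library size) in at least 3 of the 18 libraries. F13A1 and SERPINB2 passed this filter only through the groups in which they were higher, so SERPINB2 is likewise described by its levels, and the other 6 genes were tested and counted.

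The 6 groups held 3 libraries each. WT were parental MB231 cells without modification and untreated. MB231-GPS2KO1 and -KO2 were pools edited with CRISPR-Cas9 and separate sgRNA sets against GPS2, a subunit of the NCoR/SMRT corepressor complex and an inhibitor of the ubiquitin-conjugating enzyme UBC13. Both were untreated, were made by lentiviral delivery with puromycin selection, and were kept as heterogeneous pools rather than clones. MB231-myrAKT cells carried myristoylated AKT, a membrane-anchored and constitutively active form delivered by a retrovirus, and were untreated. KO1+MK and KO2+MK were the knockout pools treated with 10 µM MK2206, an allosteric AKT inhibitor, for 4 h. All cells were grown in DMEM with serum. No vehicle is named for the untreated cells, and treated WT or treated myrAKT libraries were not part of the 18, so the MK2206 comparisons apply to knockout cells. The comparisons addressed which differences from parental cells the knockout pools share with myrAKT cells and which respond to AKT inhibition. No line with an empty vector or a control guide was among the 18. In comparisons with WT, GPS2 loss or active AKT thus cannot be told apart from viral delivery, or in the pools from selection.

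Tissue factor is the cell surface receptor and cofactor of factor VII, and its complex with the activated factor starts clotting by activating factor X. TFPI blocks that complex, thrombin bound to thrombomodulin activates protein C instead of cleaving fibrinogen, and activated factor XIII cross-links the fibrin that thrombin makes. Urokinase (PLAU) and tissue plasminogen activator (PLAT) turn plasminogen into plasmin, which dissolves fibrin and degrades matrix. PLAUR holds urokinase at the cell surface, SERPINB2 (PAI-2) inhibits both activators, and TFPI2 is a secreted Kunitz inhibitor of plasmin and other proteases. Invasive breast cancer lines such as MDA-MB-231 are known for tissue factor, urokinase and urokinase receptor on their surface.

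Promoter sequences are shown for the genes on which the results turn most: F3 and F13A1, which led the choice of genes, and PLAUR, the only tested gene of the 9 called after MK2206. Each line gives the 250 bases before the transcription start in RefSeq (GRCh38.p14), 5' to 3' on the gene's strand, with motif matches in capitals. The windows are chr1:94541760-94542009 for F3, chr6:6320663-6320912 for F13A1 and chr19:43670170-43670419 for PLAUR, all on the minus strand.
F3: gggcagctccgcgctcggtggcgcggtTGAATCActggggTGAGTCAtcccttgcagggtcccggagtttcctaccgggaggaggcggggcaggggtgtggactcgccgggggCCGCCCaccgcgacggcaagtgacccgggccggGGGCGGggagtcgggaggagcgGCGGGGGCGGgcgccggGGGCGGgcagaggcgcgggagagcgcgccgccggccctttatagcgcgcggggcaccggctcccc
F13A1: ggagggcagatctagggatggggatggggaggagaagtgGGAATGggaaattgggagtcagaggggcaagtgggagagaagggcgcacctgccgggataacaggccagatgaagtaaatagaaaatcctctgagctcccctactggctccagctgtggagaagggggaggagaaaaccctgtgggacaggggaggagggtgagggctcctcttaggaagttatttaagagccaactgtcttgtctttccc
PLAUR: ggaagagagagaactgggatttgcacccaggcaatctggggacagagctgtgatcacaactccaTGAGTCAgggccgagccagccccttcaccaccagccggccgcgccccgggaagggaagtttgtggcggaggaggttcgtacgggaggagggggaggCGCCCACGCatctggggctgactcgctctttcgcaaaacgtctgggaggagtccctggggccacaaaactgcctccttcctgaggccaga
The letters searched on both strands were TGANTCA (AP-1), GTAAACA (FOXO), GGGCGG (GC box), GCGNGGGCG (EGR1, whose last letters overlap a GC box) and GGAATG (TEAD). Of 35116 RefSeq promoter windows of this length, 6.57% held the AP-1 letters, 2.98% the FOXO letters, 42.6% a GC box, 8.41% the EGR1 letters and 11.9% the TEAD letters. The F3 window held 2 AP-1 matches, 4 GC boxes and 1 EGR1 match, with the AP-1 matches starting 223 and 210 bases before the start site. The F13A1 window held 1 TEAD match. The PLAUR window held 1 AP-1 match and 1 EGR1 match on the opposite strand. Of the 9 genes, 7 had an entry in the RefSeq table (PLAU had 2), and AP-1 letters were present in the windows of F3, TFPI2, PLAUR and SERPINB2. These matches describe letters in the window and do not show that a factor binds there.

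Library size was 30287210 to 39319910 counted reads in the 12 untreated libraries and 23419198 to 29939536 in the 6 treated ones, so the low-level genes F13A1 and SERPINB2 rest on fewer reads after MK2206. Markers of MDA-MB-231 cells (VIM, CD44, AXL, CAV1, FOSL1 and LOX) were all above 1 CPM in every group, although LOX fell in KO2 and myrAKT (log2 -0.80 and -1.40). Of 6 luminal or epithelial markers listed as low in this line, 3 to 4 had a mean of at least 1 CPM in each group, with ERBB3 at 9.87, FOXA1 at 7.15 and GATA3 at 3.31 CPM in WT. FOXA1 and ERBB3 were called lower in KO2 and myrAKT, ERBB3 also in KO1, and both were called higher with MK2206 in each pool. GATA3 was called lower with MK2206 in KO2. The part of these genes in the results was not tested. GPS2 RNA was at 4.56 ± 0.278 CPM (SD, n = 3) in WT, at 4.49 ± 0.0366 in the libraries labelled KO1, which overlapped WT, and at 6.02 ± 0.123 in those labelled KO2, which lay above it, and neither difference was called (log2 -0.04 and 0.40); gene counts do not show an edit in the sequence and so cannot check these labels. For the knockout lines the study reports that western blot and genomic PCR showed the efficacy of the GPS2 knockdown. AKT1 rose in myrAKT (230.1 ± 12.1 against 134.5 ± 0.989 CPM, log2 fold change 0.77, adjusted p = 4.27e-09). A gene was called where its adjusted p did not exceed 0.001 and its fold change reached 1.5, using edgeR's two-sided quasi-likelihood test with Benjamini-Hochberg adjustment over all 15587 genes tested, and every adjusted p below comes from it. Nothing states that the 3 replicates came from separate cultures, so the p-values measure the spread between these libraries, which may be technical. The same WT libraries serve the KO1, KO2 and myrAKT comparisons, and the same untreated KO libraries serve both the WT and the MK2206 comparisons.

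Tissue factor was higher in both knockout pools than in WT, and lower than in WT in myrAKT cells and in the treated knockout cells. F3 (ENSG00000117525) spans 94529173 to 94541759 of chromosome 1 (hg38, minus strand), as GENCODE release 44 places it. In TMM-normalized CPM its WT libraries were at 238, 217 and 228. The KO1 libraries were at 557, 497 and 571.5, and the KO2 libraries at 382, 359 and 364. Both pools lay above every WT library and did not overlap each other. The myrAKT libraries were at 94.8, 94.7 and 86.7 CPM, the lowest of all groups. KO1+MK libraries were at 136, 158 and 158 CPM, and KO2+MK libraries at 127, 113 and 104. The order of the group means was KO1, KO2, WT, KO1+MK, KO2+MK and myrAKT, and no 2 neighbours in that order overlapped. In RNA from whole cultures, a higher level per cell and a larger share of expressing cells cannot be told apart.

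In log2 fold change F3 was 1.23 (SE 0.0479, 2.35-fold) higher in KO1 than in WT and 0.69 (SE 0.0379, 1.61-fold) higher in KO2. It was 2.49-fold lower in myrAKT than in WT (log2 -1.31, SE 0.0481). Treatment with MK2206 went with a 3.53-fold lower level in KO1 cells (log2 -1.82, SE 0.0592) and a 3.18-fold lower level in KO2 cells (log2 -1.67, SE 0.0562). The difference between the pools in this MK2206 difference (KO1 minus KO2) was -0.15 on the log2 scale, with a standard error of 0.0925. These are descriptions, since the gene was chosen for its changes. Per kilobase of exon, F3 was the most abundant of the 9 genes in KO1, at 188 ± 13.6 CPM per kb (SD, n = 3), and came after PLAU in WT (79.0 ± 3.60 against 130.4 ± 2.89). The plot of all libraries shows F3 beside the other genes.

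**Figure D1:**
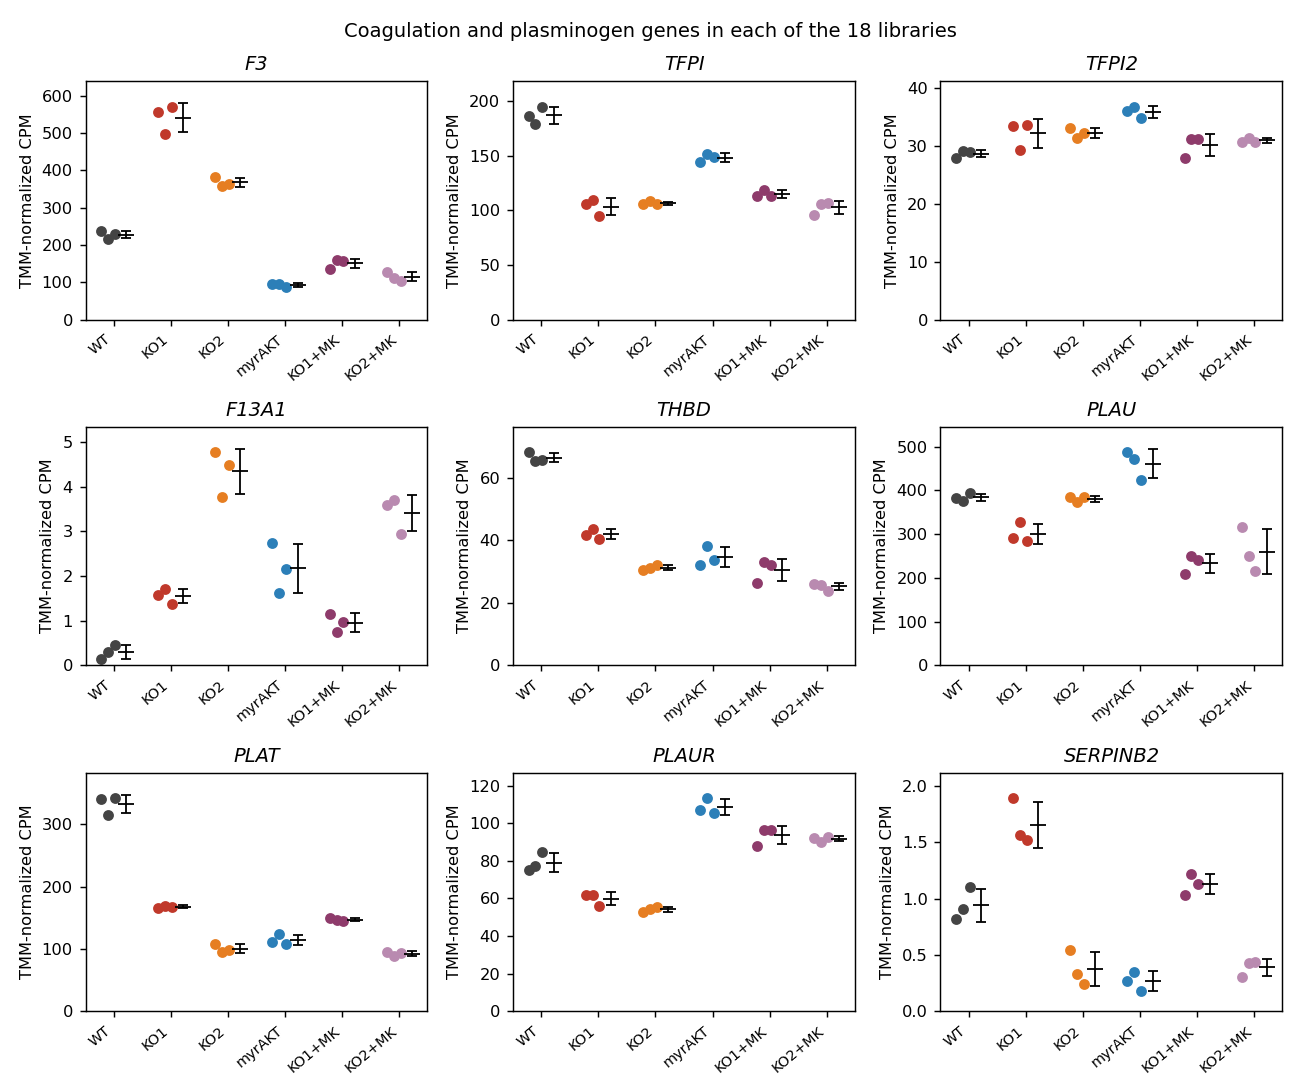
Each panel gives 1 gene in TMM-normalized CPM (vertical axis, from 0) for the 6 groups, with a point per library and the mean and SD (n = 3) as a bar beside the points. F3 is highest in KO1 (497 to 571.5 CPM) and lowest in myrAKT (86.7 to 94.8 CPM), whereas PLAT and THBD are highest in WT.

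TFPI and TFPI2 moved differently from each other. TFPI fell in both knockout pools, and TFPI2 was not called in any comparison. TFPI (ENSG00000003436), on the minus strand of chromosome 2 from 187464230 to 187565760, was at 187, 179 and 195 CPM in WT. In KO1 it was at 106, 109.6 and 95 CPM, and in KO2 at 106, 108 and 106 CPM. All knockout libraries lay below all WT libraries and the pools overlapped each other. The log2 fold change was -0.87 (SE 0.0473, adjusted p = 1.33e-09) in KO1 and -0.82 (SE 0.0388, adjusted p = 1.54e-09) in KO2.

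In myrAKT cells TFPI was at 144, 152 and 149 CPM, between WT and the knockout pools. That difference from WT (log2 -0.34, SE 0.0461, adjusted p = 2.4e-05) did not reach 1.5-fold and was not called. MK2206 left TFPI at 115 ± 3.37 CPM in KO1 (log2 0.18, SE 0.0474, adjusted p = 0.00865) and at 103 ± 6.23 CPM in KO2 (log2 -0.03, SE 0.0451, adjusted p = 0.564), and neither was called. TFPI shares 118 exon bases with CALCRL-AS1 on the opposite strand, which had 1121 counts over all libraries against 77095 for TFPI.

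TFPI2 (ENSG00000105825), on the minus strand of chromosome 7 from 93885396 to 93890753, had group means from 28.6 ± 0.610 CPM in WT to 35.8 ± 1.01 CPM in myrAKT, a span of 1.25-fold and the narrowest of the 9 genes. The 3 myrAKT libraries lay above every other library. The myrAKT difference from WT (log2 0.32, SE 0.0498, adjusted p = 9.25e-05) was below 1.5-fold.

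Set against its inhibitor within each library, F3 per kilobase was 4.95 ± 0.213 times TFPI in WT (SD, n = 3). This ratio was 21.4 ± 3.00 in KO1 and 14 ± 0.614 in KO2, where F3 was higher and TFPI lower. In myrAKT cells the ratio was 2.52 ± 0.153, the lowest of the groups. With MK2206 it was 5.33 ± 0.398 in KO1 and 4.55 ± 0.757 in KO2, and the ranges of both treated groups overlapped that of WT. Both genes were below WT there. Mean F3 was 151 CPM in KO1+MK and 114.5 in KO2+MK against 228 in WT, and mean TFPI 115 and 103 against 187. The ratio carries F3 and is therefore given without a test. Its size depends on the exon lengths used, 2886 bases for F3 and 11714 for TFPI. Before division by length, the WT levels were 228 CPM for F3 and 187 CPM for TFPI. The change of the ratio between groups does not depend on these lengths.

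**Figure D2:**
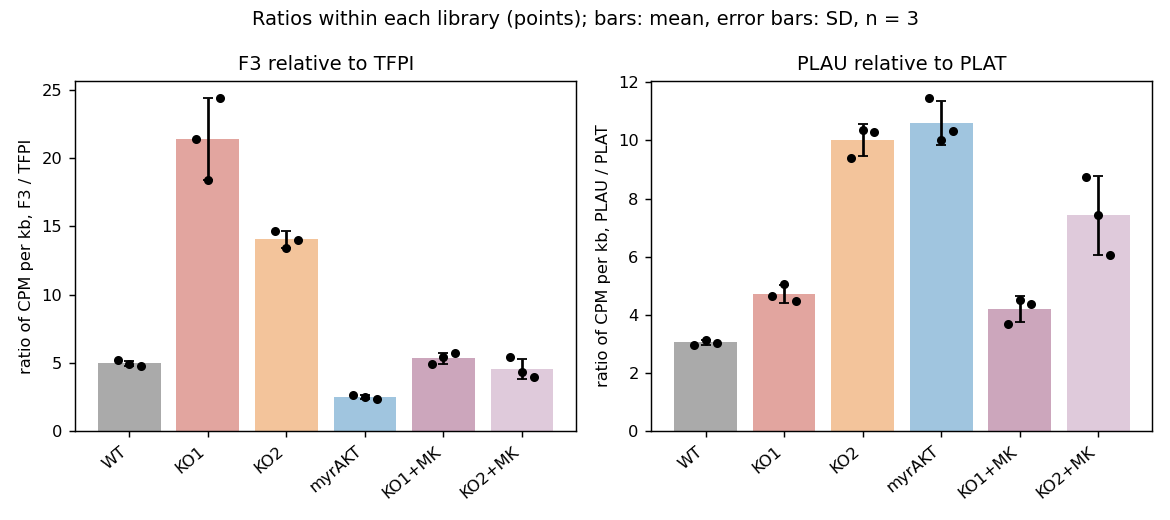
Ratios of CPM per kb of exon within each library (points), with the group mean as a bar and the SD as an error bar (n = 3), for F3 relative to TFPI (left) and PLAU relative to PLAT (right). F3 relative to TFPI averages 4.95 in WT, 5.33 and 4.55 in the treated groups and 21.4 in KO1, whereas PLAU relative to PLAT is lowest in WT (3.05) and highest in KO2 (10.0) and myrAKT (10.6).

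Thrombomodulin fell in KO1, KO2 and myrAKT. THBD (ENSG00000178726), on the minus strand of chromosome 20 from 23045633 to 23049672, was at 68.05, 65.3 and 65.7 CPM in WT. KO1 libraries were at 41.8, 43.6 and 40.3 CPM and KO2 libraries at 30.6, 31.0 and 32.1 CPM. The myrAKT libraries were at 31.9, 38.1 and 33.6 CPM, overlapping KO2 and lying below KO1 and WT. The log2 fold change from WT was -0.68 (SE 0.0419, adjusted p = 4.2e-09) in KO1. It was -1.09 (SE 0.0383, adjusted p = 1.54e-10) in KO2 and -0.95 (SE 0.0584, adjusted p = 8.36e-09) in myrAKT.

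With MK2206, THBD was at 26.5, 33.1 and 32.0 CPM in KO1 and at 26.1, 25.7 and 23.9 CPM in KO2. Treated libraries lay below untreated libraries in both pools, but the differences of -0.43 (SE 0.065, adjusted p = 0.000157) and -0.29 (SE 0.0526, adjusted p = 0.000383) in log2 fold change were under 1.5-fold and were not called. TFPI and THBD are also genes of endothelial cells. Of 6 endothelial markers, EMCN had a group mean of at most 0.00975 CPM in every group, and VWF and CDH5 did not reach 1 CPM in every group. Of the other 3, 2 (PECAM1 and TIE1) were called lower in KO1 and 0 in KO2, beside 9.28% and 11.2% of all genes called lower. In myrAKT PECAM1 was called higher (log2 2.55) and KDR lower (log2 -1.27), beside 4.94% and 8.83%. CDH5 had means of 3.07 CPM in WT, 0.503 in KO1, 1.08 in KO2 and 0.361 in myrAKT, and VWF of 0.978, 0.340, 0.460 and 0.893 CPM. The summed level of the 6 was 64.6 to 67.5 CPM in WT, 42.4 to 44.5 in KO1, 64.35 to 68.55 in KO2 and 68.95 to 73.2 in myrAKT, most of it TIE1. It was 41.4 to 45.7 CPM in KO1+MK and 59.5 to 66.4 in KO2+MK. The part of these genes in the TFPI and THBD results was not tested.

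F13A1, the transglutaminase subunit that stabilizes fibrin, was a low-level transcript that was higher than WT in every other group. F13A1 (ENSG00000124491) lies on the minus strand of chromosome 6, from 6144084 to 6321013. The WT libraries were at 0.146, 0.301 and 0.456 CPM, which are 5, 11 and 17 reads. KO1 libraries were at 1.58, 1.70 and 1.38 CPM and KO2 libraries at 4.77, 3.78 and 4.49 CPM, the latter from 147 to 167 reads. The myrAKT libraries were at 2.73, 1.63 and 2.17 CPM. KO2 lay above every other group, myrAKT and KO1 overlapped, and WT lay below all.

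Relative to WT, F13A1 was 4.98-fold higher in KO1 (log2 2.32, SE 0.277), 14-fold higher in KO2 (log2 3.81, SE 0.243) and 7.05-fold higher in myrAKT (log2 2.82, SE 0.321). The KO2 level was 2.81-fold that of KO1 (log2 -1.49 for KO1 minus KO2, SE 0.141). After MK2206 the libraries were at 1.16, 0.740 and 0.960 CPM in KO1 and at 3.59, 3.70 and 2.94 CPM in KO2. The treated libraries lay below the untreated ones in both pools, with log2 differences of -0.68 (SE 0.228) and -0.33 (SE 0.133). Both treated groups still lay above WT. F13A1 and F3 thus differed in myrAKT cells, where F3 was below WT and F13A1 above it, and in the treated knockout cells, where F3 was below and F13A1 above WT.

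F13A1 is also a gene of monocytes and megakaryocytes. Of 9 myeloid and platelet markers, PF4 and PPBP had no count in any library, and the summed level of the list was 2.45 to 4.99 CPM over all groups (3.45 to 4.74 in WT, 2.45 to 2.97 in KO1, 2.85 to 3.03 in KO2, 4.11 to 4.99 in myrAKT, 2.48 to 3.15 in KO1+MK and 2.45 to 3.84 in KO2+MK). Only CSF1R and CD14 of the 9 passed the expression filter. CSF1R was called higher in myrAKT (3.40 ± 0.382 against 1.37 ± 0.381 CPM in WT, log2 1.30, adjusted p = 5.99e-05) and was at 1.445 ± 0.216 CPM in KO1 and 2.12 ± 0.0862 CPM in KO2, neither called. CD14 reached 1 CPM in WT alone, with means of 1.60 CPM there, 0.819 in KO1, 0.526 in KO2 and 0.682 in myrAKT. The part of these genes in the F13A1 levels was not tested. F13B, the carrier subunit of factor XIII, had at most 2 reads in any library. FGA had no count in any library, FGB and FGG had at most 1, and PLG had at most 1, so the transcripts of the substrates of factor XIII and of the plasminogen activators were at or near 0 at this depth. A count of 0 in a library allows up to 3 counts, for counting error only.

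The plasminogen activators also moved apart. PLAT fell in KO1, KO2 and myrAKT, whereas PLAU was not called in any comparison. PLAT (ENSG00000104368), on the minus strand of chromosome 8 from 42174718 to 42207709, was at 341, 315.5 and 342 CPM in WT. KO1 libraries were at 166, 169.7 and 168 CPM, KO2 libraries at 108, 95.1 and 98.7 CPM, and myrAKT libraries at 112, 124 and 108 CPM. No group of modified cells overlapped WT, and KO2 lay below KO1. The log2 fold change from WT was -1.01 (SE 0.0356, adjusted p = 6.31e-11) in KO1, with a level of 168 ± 2.08 CPM. It was -1.73 (SE 0.0464, adjusted p = 1.56e-11) in KO2 and -1.54 (SE 0.0551, adjusted p = 3.69e-11) in myrAKT.

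MK2206 did not give a called change of PLAT. Its level was 147 ± 2.57 CPM in treated KO1 (log2 -0.16, SE 0.034, adjusted p = 0.00161) and 92.4 ± 3.78 CPM in treated KO2 (log2 -0.10, SE 0.0465, adjusted p = 0.083).

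PLAU (ENSG00000122861), on the plus strand of chromosome 10 from 73909177 to 73917496, was at 383, 377 and 394 CPM in WT and at 384, 374 and 385 CPM in KO2, which overlapped. In KO1 it was at 292, 327 and 285 CPM, below WT (log2 -0.37, SE 0.0441, adjusted p = 3.29e-06) and short of 1.5-fold. In myrAKT it was at 487, 472 and 424 CPM, above WT by 0.25 (SE 0.0514, adjusted p = 0.000778). By group mean the urokinase level was highest in myrAKT and lowest in the treated knockout pools. After MK2206 it was at 209, 250.3 and 241.5 CPM in KO1 (log2 -0.34, SE 0.0595, adjusted p = 0.000469).

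In KO2+MK the PLAU libraries were at 317, 249 and 215 CPM, the widest spread of any group for this gene. The log2 fold change was -0.53 (SE 0.09, adjusted p = 0.00021), and without KO2+MK replicate 1, the highest of these, it was -0.70 (adjusted p = 2.98e-08) and was called. PLAU shares 915 of its 2949 exon bases with C10orf55 on the opposite strand. That gene had 1736 counts over all libraries against 206245 for PLAU. How reads in exons of more than 1 gene were counted is not given in the sources used here, so reads over the shared bases, 31.0% of the PLAU exons, may be missing from its level. PLAU per kilobase was 3.05 ± 0.0923 times PLAT in WT, 4.73 ± 0.313 times in KO1, 10.0 ± 0.544 times in KO2 and 10.6 ± 0.770 times in myrAKT. The size of this ratio depends on the exon lengths used, 2949 bases for PLAU and 7770 for PLAT. Before division by length, the WT levels were 385 CPM for PLAU and 333 CPM for PLAT.

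The urokinase receptor was the only gene of the 6 called higher with MK2206. PLAUR (ENSG00000011422), on the minus strand of chromosome 19 from 43646095 to 43670547, was at 62.0, 61.85 and 55.85 CPM in KO1 and at 88.1, 96.3 and 96.2 CPM in KO1+MK. In KO2 it was at 52.8, 54.5 and 55.1 CPM, and in KO2+MK at 92.1, 90.2 and 92.6 CPM. Treated and untreated libraries were apart in both pools. The log2 fold change was 0.67 (SE 0.046, adjusted p = 2.12e-07) in KO1 and 0.78 (SE 0.0383, adjusted p = 2.62e-09) in KO2. The difference between the pools, tested as an interaction, was -0.11 (SE 0.0616, adjusted p = 0.69).

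WT libraries had PLAUR at 75.2, 77.0 and 84.6 CPM and myrAKT libraries at 107, 113 and 105 CPM. Both knockout pools lay below WT and myrAKT above it. These differences were -0.42 (SE 0.0509, adjusted p = 4.43e-06) in KO1, -0.55 (SE 0.0479, adjusted p = 3.45e-07) in KO2 and 0.45 (SE 0.0514, adjusted p = 4.02e-06) in myrAKT on the log2 scale, all short of 1.5-fold. Without WT replicate 1 the KO2 difference was -0.60 and was called. Compared directly, PLAUR was 1.93-fold lower in the knockout lines (mean of KO1 and KO2) than in myrAKT (log2 -0.95, SE 0.0382, adjusted p = 2.54e-12).

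SERPINB2 (ENSG00000197632), on the plus strand of chromosome 18 from 63871692 to 63903888, was a low-level transcript with 7 to 72 reads per library. It passed the expression filter through WT, KO1 and KO1+MK, since no KO2, KO2+MK or myrAKT library reached 1 CPM. WT libraries were at 0.819, 0.904 and 1.10 CPM, KO1 libraries at 1.89, 1.565 and 1.52 CPM and KO2 libraries at 0.543, 0.334 and 0.245 CPM. The myrAKT libraries were at 0.270, 0.352 and 0.181 CPM. KO1 lay above WT, and KO2 and myrAKT below it. The knockout pools thus stood on opposite sides of WT and did not overlap each other, while KO2 and myrAKT overlapped.

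With MK2206 SERPINB2 was at 1.13 ± 0.0921 CPM in KO1 and 0.389 ± 0.0754 CPM in KO2. The treated KO1 libraries lay below the untreated ones, and those of KO2 overlapped. These levels are given without a test. Of its 2741 exon bases, 547 are shared with a protein-coding gene on the same strand, ENSG00000289724, so reads there cannot be told apart.

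Counted over the 6 tested genes, the knockout pools gave the same calls against WT. In KO1 3 genes fell (TFPI, PLAT and THBD) and 0 rose, beside 9.28% of all tested genes called lower and 4.59% called higher. In KO2 the same 3 fell and 0 rose, beside 11.2% lower and 5.56% higher. In myrAKT 2 fell (PLAT and THBD) and 0 rose, beside 8.83% lower and 4.94% higher. The median log2 fold change of the 6 was -0.55 in KO1, -0.69 in KO2 and -0.05 in myrAKT, against -0.01, 0.01 and 0.02 over all genes. The KO1 and myrAKT libraries did not overlap WT for any of the 6 genes, beside 69.2% and 60.8% of all genes, and the KO2 libraries did not for 5, beside 70.2%. Such separation was thus frequent among all genes.

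After MK2206, 1 gene (PLAUR) rose and 0 fell in KO1, beside 3.3% of all genes called higher and 1.71% lower. In KO2 the same gene rose and 0 fell, beside 4.9% and 2.16%. Treated and untreated libraries did not overlap for 5 of the 6 genes in KO1 and 3 in KO2, beside 55.5% and 55.2% of all genes. The median of the 6 was -0.12 in KO1 and -0.07 in KO2, against 0.01 and -0.01 over all genes. No interaction between MK2206 and the knockout pool was called for the 6 genes. Nor was it for any gene in the edgeR fit used throughout (0.0% of all genes, with 1251 at an unadjusted p under 0.05). DESeq2 called 5 genes, edgeR without the expression filter 33, and edgeR without KO2+MK replicate 1 called 2. The fold change plot places these calls side by side.

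**Figure D3:**
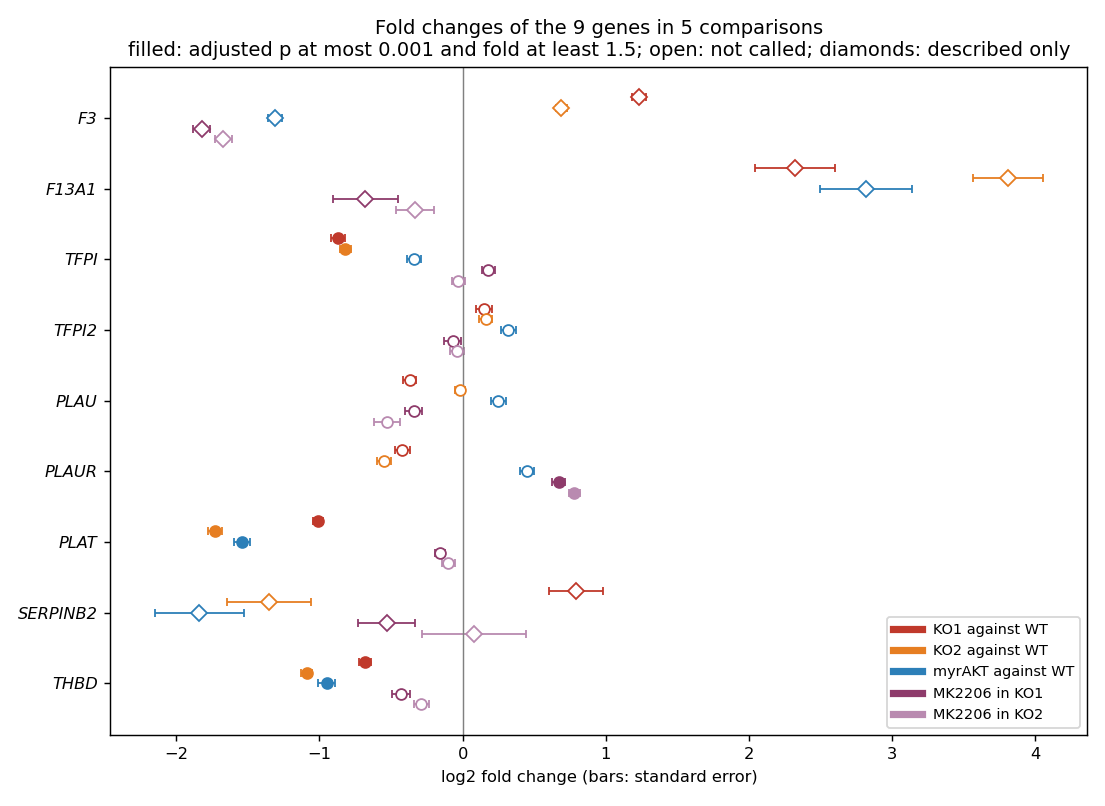
Log2 fold change (horizontal axis) with its standard error for the 9 genes in 5 comparisons, filled where called and open where not, with diamonds for F3, F13A1 and SERPINB2, which are described only. F3 is to the right of 0 in KO1 and KO2 and to the left in myrAKT and with MK2206, F13A1 is to the right in all 3 comparisons with WT, and the filled points with WT as control are all to the left.

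Between the untreated pools, 1 of the 6 genes was called, higher in KO1, beside 1.87% of all genes called higher and 0.744% lower. Libraries of the pools did not overlap for 4 of the 6, beside 45.7% of all genes. The gene called was PLAT, with 168 ± 2.08 CPM in KO1 against 100.6 ± 6.59 in KO2 (log2 0.73, SE 0.0374, adjusted p = 3.13e-10). THBD differed by 0.41 (SE 0.0445, adjusted p = 2e-06) and PLAU by -0.35 (SE 0.0418, adjusted p = 6.01e-06) without reaching 1.5-fold. F3 was higher in KO1 than in KO2 (log2 0.55, SE 0.0427) and F13A1 lower (log2 -1.49, SE 0.141).

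Between the knockout lines and myrAKT, 1 of the 6 genes was called lower in the knockout lines (PLAUR) and 0 higher, beside 11.2% lower and 7.94% higher among all genes. Libraries did not overlap for 4 of the 6, beside 56.5% of all genes. For SERPINB2, KO1 lay above myrAKT and KO2 overlapped it. PLAT and THBD did not give a called difference between the lines (log2 0.16, SE 0.0437, adjusted p = 0.00321, and log2 0.05, SE 0.0508, adjusted p = 0.369). TFPI was lower in the knockout lines (log2 -0.52, SE 0.0397, adjusted p = 6.44e-09), which is short of 1.5-fold. F3 was 4.8-fold higher in the knockout lines than in myrAKT (log2 2.26, SE 0.0492).

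Further genes of clotting and fibrinolysis were taken from 5 lists of 53 genes, of which 28 passed the expression filter. VWF, SERPINA5, TGM1, TGM5 and SERPINF2 passed it although 1 or more groups had no library at 1 CPM, and the counts are over the other 23. In KO1 5 of the 23 fell and 0 rose, beside 9.28% of all genes called lower and 4.59% called higher. In KO2 7 fell and 0 rose, beside 11.2% and 5.56%. In myrAKT 7 fell and 2 rose, beside 8.83% and 4.94%. The median log2 fold change over the 23 was -0.13 in KO1, -0.19 in KO2 and -0.15 in myrAKT. With MK2206, 1 of the 23 rose in each pool and 0 fell, which is near the 3.3% and 4.9% of all genes called higher. Between KO1 and KO2 none was called, beside 1.87% of all genes called higher and 0.744% lower. Between the knockout lines and myrAKT 4 were higher and 4 lower in the knockout lines, beside 7.94% and 11.2%.

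Of 4 tested genes listed as anticoagulants, 2 fell in KO1, 3 in KO2 and 3 in myrAKT, and none rose. The shares of all genes called lower were 9.28%, 11.2% and 8.83%, and those called higher 4.59%, 5.56% and 4.94%. PROS1, the protein S cofactor of activated protein C, fell from 52.15 ± 0.803 CPM in WT to 28.4 ± 2.46 in KO1 (log2 -0.90, adjusted p = 3.81e-09). It fell to 25.95 ± 0.486 CPM in KO2 and to 32.2 ± 1.59 CPM in myrAKT (log2 -1.01 and -0.70). SERPIND1 (heparin cofactor II, a thrombin inhibitor) fell in the same 3 lines, from 6.07 ± 0.764 CPM in WT to 2.16 ± 0.1345, 1.845 ± 0.2295 and 1.76 ± 0.214 CPM. SERPINA5 was on the same list, but it inhibits activated protein C as well as clotting proteases. It reached 1 CPM only in WT and myrAKT, with 1.58 ± 0.184 CPM in WT, 0.396 ± 0.0702 in KO1, 0.334 ± 0.0475 in KO2 and 2.65 ± 0.682 in myrAKT, and is not counted.

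Of the clotting factors, 8 of 20 passed the filter. F8, the cofactor of factor IX, fell in KO1, KO2 and myrAKT (log2 -0.85, -1.42 and -0.74) from 6.21 ± 0.153 CPM in WT. VWF, which carries factor VIII in plasma, reached 1 CPM in WT alone. F7, the ligand of tissue factor, had at most 3 reads in any library and F2 (prothrombin) at most 15.

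The protease activated receptors, through which thrombin, the tissue factor complex and other proteases signal to cells, fell in myrAKT and were not called in the knockout pools. All 3 that passed the filter, of 4 listed, were called, beside 8.83% of all genes called lower. F2RL2 (PAR3) fell from 19.7 ± 0.923 CPM in WT to 1.18 ± 0.335 CPM in myrAKT (log2 -4.06, SE 0.129, adjusted p = 1.08e-11). F2R, the thrombin receptor PAR1, fell from 144 ± 2.77 to 47.25 ± 1.97 CPM (log2 -1.61, SE 0.0437, adjusted p = 2.04e-12). F2RL1 (PAR2), which the tissue factor complex cleaves, fell from 371 ± 29.7 to 161 ± 11.7 CPM (log2 -1.21, SE 0.0641, adjusted p = 1.78e-09). In KO1 F2RL1 was at 535 ± 16.0 CPM (log2 0.51, adjusted p = 2.59e-07), short of 1.5-fold. With MK2206 these receptors were lower in both pools, short of 1.5-fold and not called. The log2 fold changes in KO1 and KO2 were -0.39 and -0.43 for F2R, -0.49 and -0.56 for F2RL1, and -0.46 and -0.42 for F2RL2. Against the knockout lines, all 3 receptors were called lower in myrAKT, beside 7.94% of all genes called higher in the knockout lines.

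Of 7 transglutaminase genes, the family of F13A1, 3 passed the filter. TGM5 reached 1 CPM in myrAKT alone, with 2.065 ± 0.189 CPM there against 0.481 ± 0.145 in WT, 0.370 ± 0.0866 in KO1 and 0.687 ± 0.0776 in KO2. TGM2, the tissue transglutaminase and the listed member with at least 1 CPM in every group, was at 864 ± 29.7 CPM in WT and was not called in any comparison.

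Of 8 tested genes of plasminogen receptors and inhibitors, 2 fell in KO1 and 3 in KO2, and 0 rose. The shares of all genes called lower were 9.28% and 11.2%, and those called higher 4.59% and 5.56%. In myrAKT 2 of the 8 rose and 0 fell, beside 4.94% and 8.83%. VLDLR, a receptor that takes up protease and inhibitor complexes, fell in KO1 and KO2. Its level was 48.5 ± 3.57 CPM in WT, 21.5 ± 1.85 in KO1 and 23.1 ± 0.757 in KO2 (log2 -1.19, adjusted p = 1.4e-09, and log2 -1.08, adjusted p = 4.87e-09). In myrAKT it was at 43.1 ± 2.55 CPM and was not called. LRP1, the endocytic receptor that clears activator and inhibitor complexes, fell in KO1 and KO2 (log2 -1.46 and -1.13) and rose in myrAKT (log2 1.00, SE 0.132, adjusted p = 1.68e-05). Its libraries ranged from 65.5 to 73.1 CPM in WT, 24.0 to 28.0 in KO1, 29.0 to 37.2 in KO2 and 104 to 174 in myrAKT. SERPINI1 (neuroserpin, an inhibitor of PLAT) rose in myrAKT (log2 1.20, adjusted p = 1.82e-06). It was also the listed gene that rose with MK2206, by 0.87 in KO1 (adjusted p = 6.15e-05) and 1.06 in KO2 (adjusted p = 3.01e-06).

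**Figure D4:**
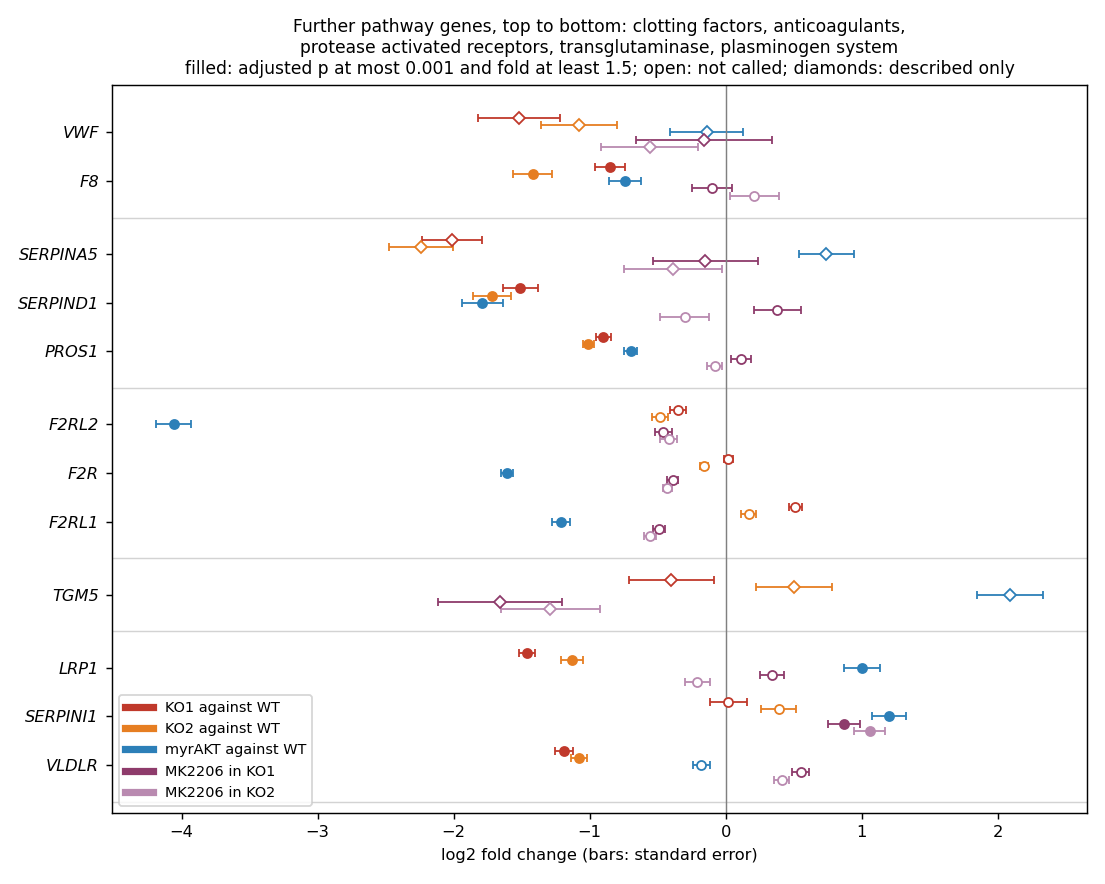
Log2 fold change with its standard error for 12 further clotting and fibrinolysis genes in 5 comparisons, grouped by list, filled where called and open where not, with diamonds for VWF, SERPINA5 and TGM5, which are described only. The protease activated receptors F2RL2, F2R and F2RL1 are filled in myrAKT alone, VLDLR is filled to the left in KO1 and KO2, and LRP1 is filled on opposite sides of 0 in the knockout pools and in myrAKT.

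The genes whose profile over the groups came closest to F3 and to F13A1 were ranked by the root mean square difference of the log2 differences from WT over the other 5 groups, among 14519 genes with a mean of at least 1 CPM. For F3 the closest was FST (follistatin, which binds activin), at 0.266. The log2 difference of FST from WT was 1.01 in KO1, 0.45 in KO2, -1.66 in myrAKT, -0.31 in KO1+MK and -0.82 in KO2+MK. For F3 itself, in the same order, these values were 1.25, 0.69, -1.31, -0.60 and -1.0. NANOS1, SOCS2 and EMSLR were also among the closest, at 0.454, 0.467 and 0.471.

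No gene came as close to F13A1. The nearest was MAGEA3, a cancer-testis antigen gene with close paralogs that may share reads, at 0.684, and then ENSG00000227706 (0.713), RTN1 (0.995), RADX (1.03) and ENSG00000271781 (1.04). The F13A1 profile was 2.25 and 3.70 in KO1 and KO2, 2.70 in myrAKT, and 1.57 and 3.35 in KO1+MK and KO2+MK, all above WT. These are group means of 3 libraries, and the likeness is a description over 5 groups that share the WT libraries.

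**Figure D5:**
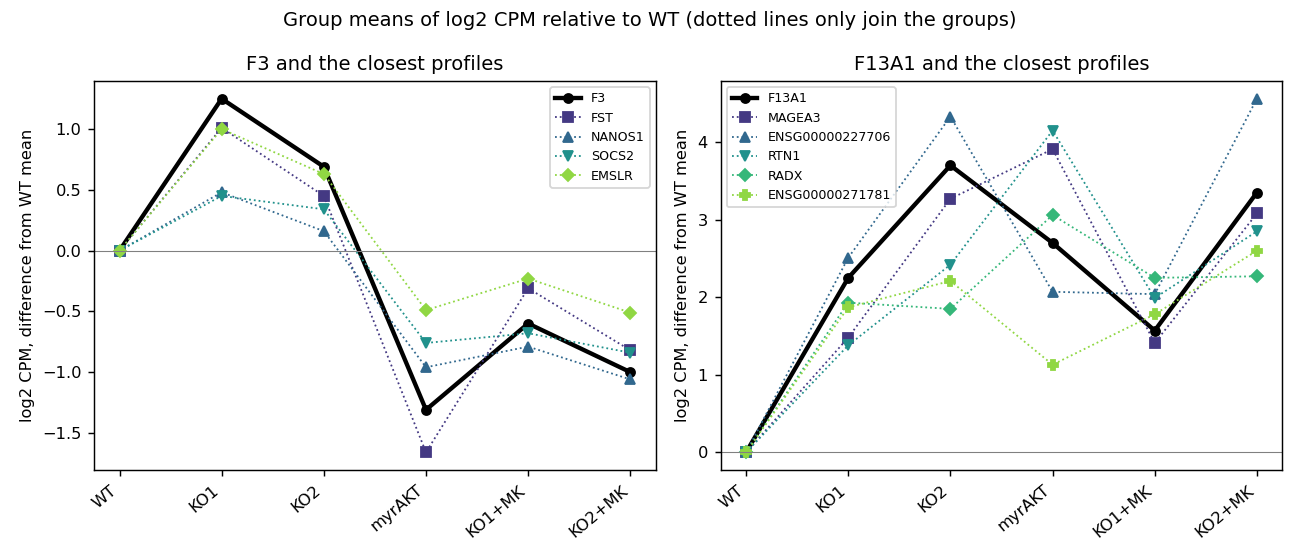
Group mean of log2 CPM (prior count 2) minus the WT mean for F3 (left) and F13A1 (right), in black, with the closest genes in colour (4 for F3 and 5 for F13A1), and dotted lines that only join the groups. F3 and FST are above 0 in the untreated knockout pools and below 0 in myrAKT and with MK2206, whereas F13A1 and its closest genes are above 0 in every group other than WT.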

How the data were processed

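The deposited unit is the count: the authors trimmed reads (Trim Galore), aligned them to hg38 (HISAT2) and counted reads per Ensembl gene (featureCounts), with no normalization. Versions, annotation and strand setting are not given in the sources used here. After ribosomal RNA depletion the libraries were pooled and run 2 times on the sequencer. Groups came from the sample labels, and 0 columns were unmapped.

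The 9 genes, the gene lists and the tests were chosen with earlier results of these data known. GENCODE release 44 gave symbols and positions. Genes reaching 1 CPM in 3 or more of the 18 libraries were tested with edgeR 4.0.16 (TMM, quasi-likelihood, only the groups compared) in R 4.3.3, with DESeq2 1.42.0 as an alternative, and the fits were tested on simulated data. Tables and figures used Python 3.11.15, pandas 2.3.3, numpy 2.4.6 and matplotlib 3.10.9. Replicate libraries differed by more than counting error (mean chi-square per gene 2.26 to 11.6). From each list, the 3 or fewer called genes with the largest change were named, with all 9 members, those of the 5 closest profiles to F3 and F13A1 that are reported, and GPS2 and AKT1. Genes named outside this rule (F7, F2, F13B, FGA, FGB, FGG, PLG, TGM1, TGM2, SERPINF2 and the markers) were named for their role or their place in the filter after their values were seen. Genes that passed the filter although a group had no library at 1 CPM were described and left out of the counts in the text, a choice made after seeing the data. Alternatives were DESeq2, other normalizations, no filter, all libraries in 1 fit, a replicate block, a looser threshold and omission of each library. 1 gene of the lists and 1 of the closest profiles are not reported here and are left out of the counts.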

Additional observations from a re-analysis of the deposited data

How the results depend on the processing

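Of the 6 tested genes, 3 were called in KO2 against WT and 4 without WT replicate 1 (3 to 4 over the omissions), and 1 with MK2206 in KO2 and 2 without KO2+MK replicate 1 (1 to 2). No omission moved the counts in KO1 against WT (3), myrAKT against WT (2), MK2206 in KO1 (1), KO1 against KO2 (1), the interaction (0) and the knockout lines against myrAKT (1). Directions that turned were all of uncalled log2 fold changes. Over the omissions of single libraries these ranged from -0.04 to 0.00 for PLAU in KO2 against WT, from -0.06 to 0.02 for TFPI and from -0.15 to 0.43 for SERPINB2 with MK2206 in KO2, from -0.10 to 0.00 for TFPI and from -0.05 to 0.04 for TFPI2 between KO1 and KO2, from -0.09 to 0.01 for TFPI2 in the interaction, and from 0.00 to 0.13 for THBD between the knockout lines and myrAKT. TFPI2 between the pools was 0.03 without the filter, and THBD between the knockout lines and myrAKT was -0.01 with upper-quartile normalization. Why these values moved was not tested. With the adjusted p threshold at 0.05, the genes called over the whole matrix were 1359 rather than 781 with MK2206 in KO1, 1661 rather than 1100 in KO2, 734 rather than 408 between the pools (638 without the filter) and 7 rather than 0 in the interaction (33 without the filter, 5 with DESeq2 and 2 without KO2+MK replicate 1). Replicate numbers did not pair the libraries: of 18 correlations of same-numbered deviations 5 were over 0.1 (range -0.233 to 0.192), in none of 6 group pairs were all 3, and in 14 of 36 cases a library correlated best with its own number. The fit with a replicate block called 2083 genes in KO1 against WT, 2647 in KO2, 2103 in myrAKT, 771 and 1161 with MK2206, 491 between the pools, 0 in the interaction and 2898 between the knockout lines and myrAKT, and changed no call of the 6 genes. F13A1 and SERPINB2 rest on 5 to 167 reads per library, which limits them more than the other 7 genes.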
